A study of Mus musculus with 2 samples.

Results

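Chemokines are small secreted proteins that direct cell movement, and their receptors couple to G proteins on the cells that move. They were followed here in mouse osteoblast cultures through 57 genes that have at least 1 probe set (the group of short probes that reports a transcript) carrying a single gene symbol of the chemokine or chemokine receptor families, together with Csf1, Il34 and Mif. The symbol alone chose them, and no measured value entered this rule, though it was set with earlier results of these data known. They had 94 of the 34945 probe sets with a single symbol and made up 57 of 18193 named genes, of which 33 were chemokine ligands, 16 were signalling receptors, 5 were atypical or chemokine-like receptors and 3 were the added cytokines. The cells were CD11b-negative cells of newborn mouse calvariae, the flat bones of the skull roof, kept with ascorbic acid (needed for collagen folding) and β-glycerophosphate (a phosphate source for mineral), and given no other treatment. The day 5 group had 5 days and the day 12 group 12 days of this medium, with 1 Affymetrix array each. The labels name neither a strain nor how many animals or cultures went into a sample, and there was no array of undifferentiated cells, so every difference below is between these 2 arrays, and no spread between cultures, SD or p-value could be given.

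Ligands are named by the spacing of their first cysteines, as CC, CXC, CX3C or XC. In bone, Cxcl12 made by stromal and osteoblast lineage cells retains blood stem cells and other cells that carry Cxcr4, while Ccl2 and Ccl7 bring in monocytes through Ccr2. Csf1 and Il34 both signal through Csf1r, a receptor needed for macrophages and osteoclasts. Mif is a cytokine that binds Cd74 and can also act on chemokine receptors. Atypical receptors such as Ackr3 and Ackr4 bind chemokines and remove them without coupling to G proteins.

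Values are MAS5 signals, a summary of a probe set's brightness on a linear scale. They cannot be set against each other between genes as levels, since probe sets differ in how brightly they respond. A floor was set on each array at the 60th percentile of all probe sets but the controls, which was 46.6 at day 5 and 44.8 at day 12, and a gene was counted as measured where its brightest probe set reached the floor on at least 1 array. A value under its floor was set to the floor, the log2 ratio (day 12 over day 5) was then formed, and a fold of such a gene is a bound, given as "at least". Of the 57 genes, 19 (33.3%) were measured, against 10479 of all 18193 genes (57.6%). They were 13 of 33 ligands, 1 of 16 signalling receptors, 2 of 5 atypical receptors and all 3 added cytokines. Of the 19, 13 lay above the floor on both arrays, 3 (Ccl5, Ccl7 and Cxcl5) at day 5 alone and 3 (Ccl4, Ccl8 and Ccl12) at day 12 alone.

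Between day 5 and day 12 the measured genes split. The monocyte attractants Ccl2 and Ccl7 and the neutrophil attractant Cxcl5 had day 12 signals more than 2-fold below those of day 5, and Mif had more than 2-fold its day 5 signal. The other 15 were not counted past 2-fold, with Csf1, Il34 and Cx3cl1 on the lower side and Ccl8, Ccl12 and Cxcl16 on the higher side. For 4 of these 15 (Ccl8, Ccl12, Ccl4 and Ccl5) the fold is a minimum, so they may differ by more. Thus 1 of 19 was at least 2-fold higher, where 3.56% of all measured genes were, and 3 of 19 were at least 2-fold lower, where 1.73% of all measured genes were. Genes with a mean signal under 100, where 8 of the 19 lay, passed 2-fold more often in both directions (4.30% higher and 2.67% lower) than genes above 1000 (2.64% and 0.720%). At 1.5-fold, 5 members were higher and 6 lower, where 7.25% and 7.70% of all measured genes were. The median log2 ratio of the 19 was 0.25, with quartiles of -0.73 and 0.58, beside -0.05 with quartiles of -0.27 and 0.17 for all measured genes. Counted at any size, 11 were higher and 8 lower at day 12, where 4564 and 5915 of all 10479 measured genes were. Each gene was counted by its brightest probe set, and Cxcl1 and Ackr4, among the 11, had probe sets in both directions.

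**Figure D1:**
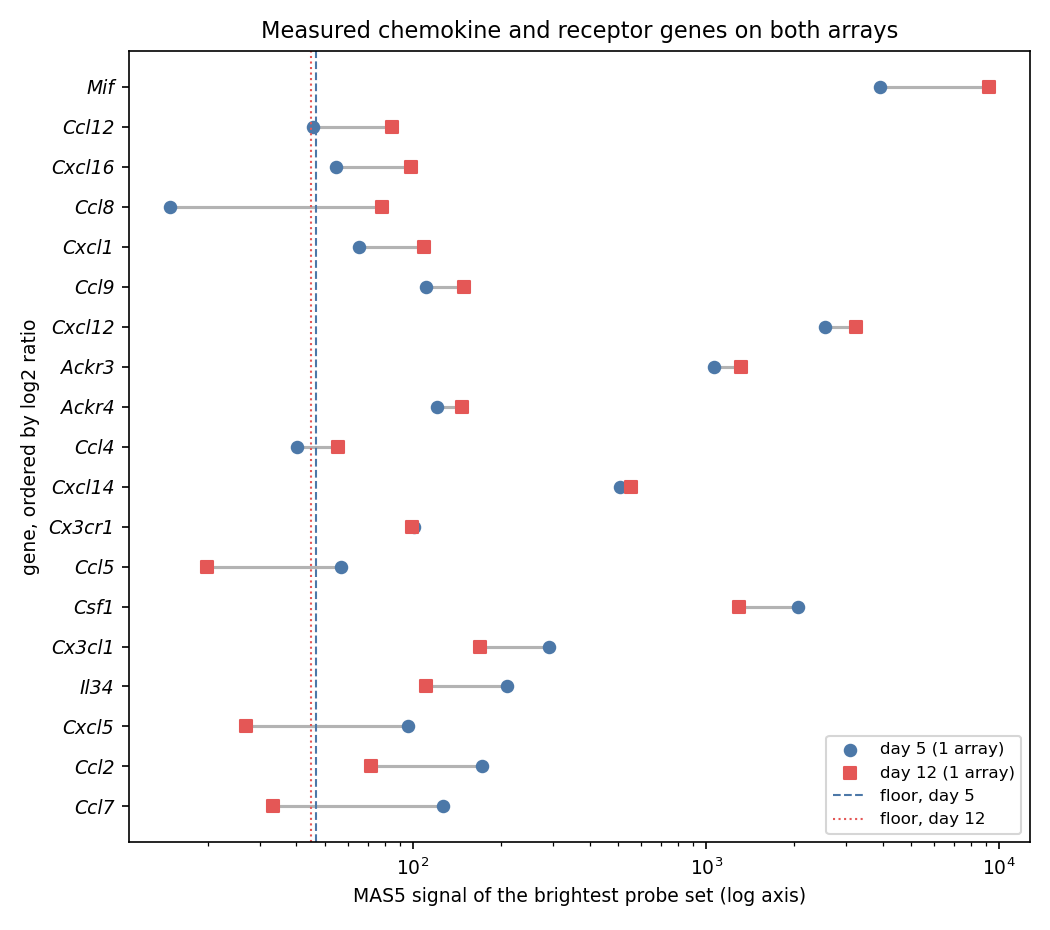
Signal of the brightest probe set of each of the 19 measured genes on the day 5 array (circles) and the day 12 array (squares), on a log axis, with each array's floor as a vertical line, genes ordered by log2 ratio. Mif lies at the top, at 3909 and 9209.98, while Ccl7, Ccl2 and Cxcl5 at the bottom have the day 5 circle to the right of the day 12 square.

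Ccl7, Ccl2 and Cxcl5 had the lowest ratios of the measured members. Ccl2, the main ligand of Ccr2 on inflammatory monocytes, gave 172 on the day 5 array and 71.7 on the day 12 array. It was 2.40-fold lower at day 12, and 0.840% of all measured genes had a lower ratio. Ccl7, a further Ccr2 ligand, had signals of 126 and 33.3. The day 12 value lay below the floor, so Ccl7 was at least 2.81-fold lower. Cxcl5, which draws neutrophils through Cxcr2, had signals of 95.9 and 27.0 and was at least 2.14-fold lower. Each of the 3 was read by a single probe set, so none has a second reading on the same array. With the floor at the 75th percentile all 3 fell below it on both arrays and were no longer measured, and with a pseudocount in place of the floor Ccl2 had a log2 ratio of -0.97, just short of 2-fold. Ccl5, an attractant of T cells and monocytes, went from a signal of 56.9, near the floor, to 19.8. Its ratio of at least 1.27-fold lower is therefore a weak bound, and with the floor at the 50th percentile its log2 ratio was -1.52.

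Other CC ligands had higher signals at day 12, all within 2-fold as counted. Ccl8 went from a signal of 14.8, below the floor, to 78.04 and was at least 1.67-fold higher. With the floor at the 50th percentile its log2 ratio was 1.99, so the size of its difference depends on where the floor is put. Ccl12, a mouse ligand of Ccr2, went from 45.5, just under the floor, to 84.8 and was at least 1.82-fold higher. Ccl9, a ligand of Ccr1 made by macrophages and osteoclasts, had signals of 111 and 149.6 in its brighter probe set and of 60.6 and 69.9 in the other, with log2 ratios of 0.43 and 0.21. Ccl4, an attractant of monocytes and T cells, went from 40.3 to 55.6, a log2 ratio of at least 0.25. The Ccr2 ligands thus did not move together, with Ccl2 and Ccl7 lower and Ccl12 higher at day 12.

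These CC ligands lie side by side on the chromosome. RefSeq's annotation of the assembly GRCm38.p6 has Ccl2, Ccl7, Ccl11, Ccl12, Ccl8 and Ccl1 in this order on chromosome 11 with no other protein-coding gene between them. The first pair, Ccl2 and Ccl7, was lower at day 12, Ccl12 and Ccl8 were higher, and Ccl11 and Ccl1 lay below the floor on both arrays. A second run on chromosome 11 holds Ccl5, Ccl9, Ccl6, Ccl3 and Ccl4, where Ccl5 was lower, Ccl9 and Ccl4 were higher and the remaining genes were below the floor. On chromosome 5, Cxcl5 stands beside Ppbp and Pf4, followed by Cxcl3, Cxcl15, Cxcl1 and Cxcl2. Pf4, a CXC chemokine of platelets and macrophages that carries an older name and so is not among the 57, had signals of 249 and 594 and was 2.39-fold higher, while Cxcl5, separated from it by Ppbp alone, was lower.

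**Figure D2:**
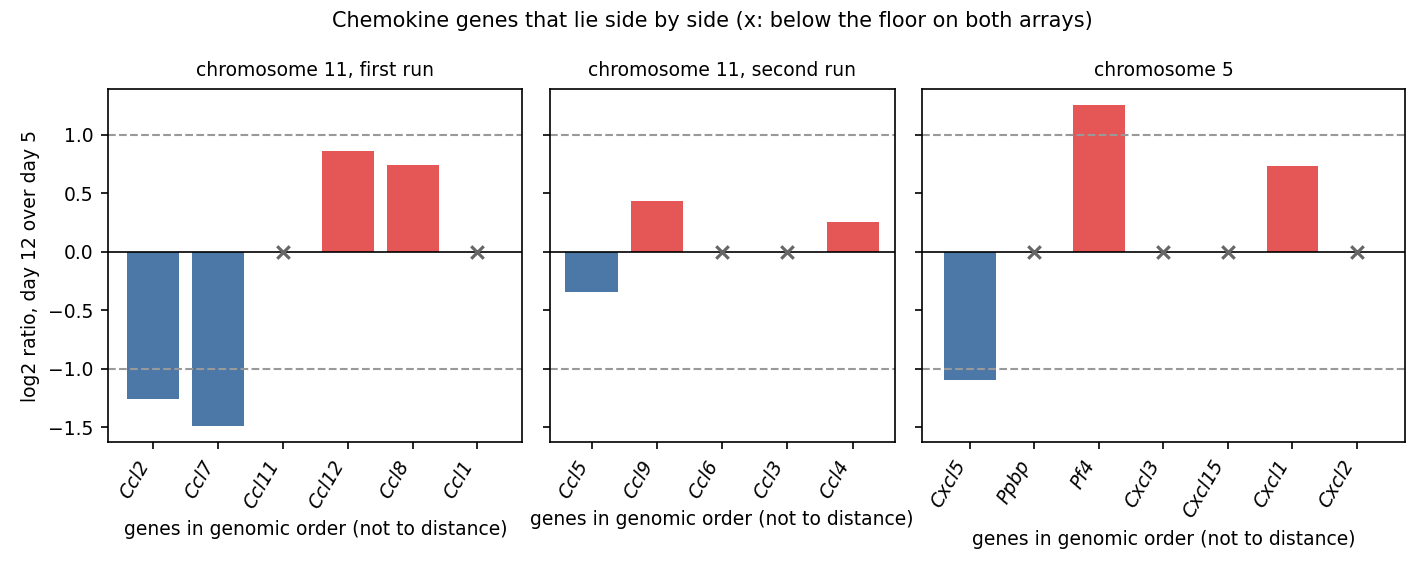
Log2 ratio of day 12 over day 5 for chemokine genes in their genomic order within 3 runs of neighbouring genes, with dashed lines at 2-fold and a cross for a gene below the floor on both arrays. Bars of Ccl7, Ccl12, Ccl8, Ccl5, Ccl4 and Cxcl5 are bounds. Each run holds bars in both directions, from -1.49 for Ccl7 to 1.26 for Pf4.

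RefSeq promoter sequences (250 bases before to 50 after the start site, GRCm38.p6) could be matched for 12 of the 19 measured genes. No sequence was at hand for Ccl2, Ccl7, Cxcl5, Ccl5, Ccl4, Cxcl16 and Il34, so these were not searched for any motif. The neighbouring pair Ccl12 and Ccl8, both higher at day 12, is shown because each promoter carries a TATA box at the usual distance. Capitals mark TATAAA, which begins 31 bases before the start site in Ccl12 (chr11:82101595-82101894, forward strand) and 32 bases before it in Ccl8 (chr11:82114935-82115234, forward strand).

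Ccl12: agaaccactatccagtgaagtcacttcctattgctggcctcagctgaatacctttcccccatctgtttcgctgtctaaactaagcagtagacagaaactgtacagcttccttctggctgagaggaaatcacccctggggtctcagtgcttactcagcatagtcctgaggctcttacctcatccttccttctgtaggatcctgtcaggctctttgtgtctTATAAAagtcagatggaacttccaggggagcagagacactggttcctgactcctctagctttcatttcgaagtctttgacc

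Ccl8: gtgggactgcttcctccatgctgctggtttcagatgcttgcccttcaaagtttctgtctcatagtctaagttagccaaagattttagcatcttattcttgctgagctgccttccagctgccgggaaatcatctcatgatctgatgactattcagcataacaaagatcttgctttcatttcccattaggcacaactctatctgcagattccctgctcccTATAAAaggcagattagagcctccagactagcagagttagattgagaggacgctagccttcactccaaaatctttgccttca

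TATAAA on either strand was present in 13.6% of 32851 promoters of this length, and in 6 of the 12 measured members. On the forward strand and beginning 25 to 35 bases before the start site it was present in 1.75% of all promoters. Of 49 member promoters, 5 had it so placed, those of Ccl12, Ccl8, Cxcl15, Cxcl3 and Cxcr4. Cxcl15, Cxcl3 and Cxcr4 lay below the floor on both arrays. The pair Ccl12 and Ccl8 was picked for this motif, so its presence in them is no test. The promoters of Ccl12 and Ccl8 held 2 CpG dinucleotides each, as did that of Ccl9, against a median of 7 over all promoters (quartiles 3 and 20). The promoters of Csf1, Cx3cl1, Cxcl12 and Cxcl14 held 16, 19, 20 and 22. Between these lay Cx3cr1, Ackr3, Ackr4, Cxcl1 and Mif, with 5, 8, 10, 10 and 14. A match to these letters is a description of the sequence and was not tested as a binding site.

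Among CXC ligands, Cxcl12, the niche chemokine, was above the floor on both arrays in 2 of its probe sets and had a higher signal at day 12 in both, by less than 2-fold. Its brightest probe set had signals of 2548 and 3254, a log2 ratio of 0.35, and 86.7% of all measured genes had a lower ratio. The other measured one had 456 and 749, a log2 ratio of 0.72. The difference of 0.36 between these readings exceeds the median of 0.17 between the 2 brightest probe sets over 4446 genes. Cxcl14, a chemokine of fibroblasts and epithelia, had signals of 508 and 555 (log2 ratio 0.13) and, in its other probe set, 181 and 232 (0.36). Cxcl16, a membrane-bound ligand of Cxcr6, rested on signals closer to the floor, of 54.7 and 98.6 in its brightest probe set and of 50.3 and 81.6 in the other. It was 1.80-fold higher at day 12 by the first and 1.62-fold by the second, and 95.6% of all measured genes had a lower ratio than the first.

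Cxcl1, a neutrophil attractant, had no settled direction. Its brightest probe set went from 65.4 to 109 (log2 ratio 0.74), another went from 52.9 to 45.6 (-0.22), and the third lay below the floor, with signals of 29.4 and 10.9. The first is of a type whose probes can match other sequences (_x_at) and the second of a type shared between related transcripts (_s_at). Without either type Cxcl1 was not measured. Cx3cl1, the membrane-bound ligand of Cx3cr1, had signals of 292 and 169 and was 1.72-fold lower at day 12, with 3 further probe sets below the floor.

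The 3 cytokines grouped with the chemokines moved apart. Mif went from a signal of 3909 at day 5 to 9209.98 at day 12, which is 2.36-fold higher, and 97.5% of all measured genes had a lower ratio. With the floor at the 60th percentile it was the only one of the 19 counted past 2-fold on the higher side. Ccl8, a bound there, was counted as well with the 50th percentile floor and with a pseudocount. The log2 ratio of Mif stayed between 1.11 and 1.29 under the 9 alternative settings run. Only the scalings and the pseudocount could move it. Its signals lay above every floor tried, and its single measured probe set is not of a shared type. Mouse Mif has processed pseudogenes of near-identical sequence, so its probe set may read more than the parent gene, and its other probe sets lay below the floor. Csf1, the main macrophage growth factor, was lower at day 12 in all 4 of its probe sets. They had signals of 2051 and 1292, of 760 and 399, of 275 and 102 and of 211 and 118, with log2 ratios of -0.67, -0.93, -1.43 and -0.84. The brightest gives 1.59-fold and the third of these 2.70-fold lower, so the reading past 2-fold rests on a probe set of the _x_at type. Il34, the alternative ligand of the same receptor, had signals of 210 and 111 in its single probe set (1.89-fold lower). Both ligands of Csf1r were thus lower at day 12, while Csf1r itself went from 812 to 1778 (2.19-fold higher), with log2 ratios of 1.12 and 0.69 in its other 2 measured probe sets. Csf1r is also 1 of the macrophage and monocyte markers read below. All 17 measured genes of that list were higher at day 12, with a median log2 ratio of 1.39.

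**Figure D3:**
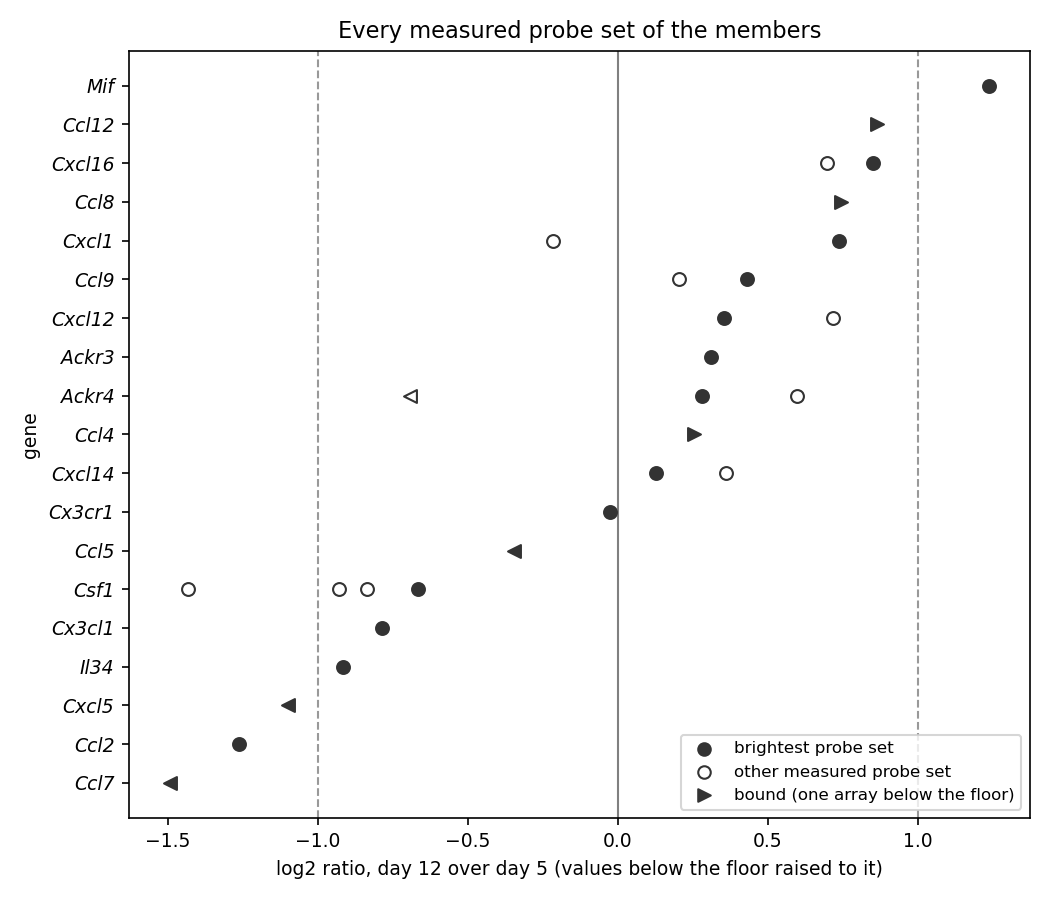
Log2 ratio of day 12 over day 5 for every measured probe set of the 19 genes, with filled symbols for the brightest probe set of a gene, open symbols for the others, triangles for bounds and dashed lines at 2-fold. All 4 probe sets of Csf1 lie left of 0, whereas Cxcl1 (0.74 and -0.22) and Ackr4 (0.28, 0.60 and -0.69) have probe sets on both sides.

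The promoters of Mif and Csf1 are shown because these cytokines moved in opposite directions. Capitals mark, in Mif (chr10:75860228-75860527, reverse strand), a match to ACGTG, the core of the hypoxia response element, which begins 30 bases after the start site and reads CACGT on the printed strand. In Csf1 (chr3:107760420-107760719, reverse strand) they mark a match to the NF-kappaB consensus, which begins 154 bases before the start site.

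Mif: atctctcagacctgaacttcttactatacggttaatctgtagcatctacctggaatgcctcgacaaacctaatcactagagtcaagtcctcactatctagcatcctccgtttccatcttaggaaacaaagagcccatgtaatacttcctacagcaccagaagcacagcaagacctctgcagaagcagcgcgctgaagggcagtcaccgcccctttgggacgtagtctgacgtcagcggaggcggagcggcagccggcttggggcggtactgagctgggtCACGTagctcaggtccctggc

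Csf1: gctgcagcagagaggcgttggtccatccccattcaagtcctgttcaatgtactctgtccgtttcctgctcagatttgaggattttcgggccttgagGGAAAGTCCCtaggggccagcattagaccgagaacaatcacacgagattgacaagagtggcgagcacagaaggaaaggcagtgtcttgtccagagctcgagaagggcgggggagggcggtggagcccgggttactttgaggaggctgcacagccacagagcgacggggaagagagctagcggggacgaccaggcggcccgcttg

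ACGTG on either strand was found in 19.6% of all promoters and in 3 of the 12 measured members (Mif, Ackr4 and Cxcl1). The NF-kappaB consensus was found in 8.46% of all promoters and, of the 12, in Csf1, Cxcl1 and Ccl9. The pair of matches in Cxcl1 overlaps by all but 1 base. The AP-1 site TGANTCA was found in 7.81% of all promoters and, of the 12, in Ccl9. The motifs do not overlap each other in the sequences printed.

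Receptors were mostly below the floor. Ackr3, the scavenger of Cxcl12, had signals of 1063 and 1318, a log2 ratio of 0.31. Its only probe set is of the _s_at type, so Ackr3 was not measured where that type was left out. Ackr4, the scavenger of Ccl19, Ccl21 and Ccl25, had signals of 121 and 147 in its brightest probe set and of 95.9 and 145 in the next, but of 72.4 and 42.1, the latter below the floor, in the third. Their log2 ratios were 0.28, 0.60 and -0.69, so no direction holds over its probe sets. Cx3cr1, the fractalkine receptor of monocytes and macrophages, had signals of 101 and 99.1, a log2 ratio of -0.02, while its second probe set lay below the floor. The other 15 signalling receptors did not reach the floor on either array. Among them Cxcr4, the signalling receptor of Cxcl12, had signals of 3.21 and 24.3, Cxcr2, the receptor of Cxcl5, 1.34 and 2.13, Ccr1 8.66 and 28.5, and the brightest of 4 probe sets of Ccr2 6.72 and 5.13. A signal under the floor does not show that a gene is silent, and no fold is given for these.

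In all, 38 of the 57 genes did not reach the floor on either array, their signals lying between 0.624 and 44.95 at day 5 and between 0.302 and 36.0 at day 12. Ccl27a was the brightest of them on either array. Their medians were 6.53 and 10.4. They included 20 ligands, among them Ccl3, Ccl11, Ccl20, Cxcl2, Cxcl3, Cxcl9, Cxcl10 and Cxcl13.

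Genes around the chemokine system were read from lists. Of the receptors of Csf1, Il34 and Mif, 2 of 4 measured genes were at least 2-fold higher and none was 2-fold lower. Besides Csf1r, Ptprz1, a receptor phosphatase that can bind Il34, went from 27.5, below the floor, to 994 and was at least 21.3-fold higher. Sdc1 and Cd44, also on this list, had log2 ratios of -0.69 and -0.38, and Cd74, the Mif receptor, lay below the floor at 35.6 and 30.6. Of 5 measured ligands and chemokine-like genes with other names, only Pf4 was at least 2-fold higher and none was 2-fold lower (Cklf had a log2 ratio of -0.999, just short of 2-fold, in its brightest probe set and between -0.41 and -0.07 in its other 4).

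Among 20 measured G protein subunits, kinases, arrestins and other signalling genes, 3 passed 2-fold on the higher side and 1 on the lower, with a median log2 ratio of 0.01. Rgs16 and Rgs2, which shorten G protein signals, had signals of 59.6 and 210.6 (3.54-fold higher) and of 94.4 and 213 (2.26-fold higher). The arrestin gene Arrb1 was at least 2.70-fold higher, and Grk5, a kinase that switches receptors off, was 2.003-fold lower, at signals of 263 and 131. Of the G protein subunits, Gnai1 had signals of 1449 and 2523, a log2 ratio of 0.80, and Gnai2, Gnai3, Gnb1, Gnb2 and Gng12 had log2 ratios between -0.26 and 0.08.

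Of 21 measured genes of NF-kappaB signalling and inflammatory induction, 2 passed 2-fold on the higher side and 1 on the lower, with a median of -0.07. Il1r1, the receptor of interleukin-1, which induces Ccl2 and Cxcl5 in many cells, had signals of 578 and 258 (2.24-fold lower). Tnfaip3, a feedback inhibitor of NF-kappaB, had 65.9 and 180 (2.73-fold higher) and Ptgs2, the inducible prostaglandin synthase, 519 and 1194 (2.30-fold higher). Of the NF-kappaB subunits, Relb had a log2 ratio of -0.80, Rela of -0.20 and Nfkb2 of 0.03, and of their inhibitors Nfkbie had -0.52, Nfkbia 0.06 and Nfkbib 0.42. Vcam1, an adhesion molecule of the same list, had -0.65, and the cytokine genes Tnf, Il1a, Il1b and Il6 lay below the floor on both arrays. None of 9 measured proteases that trim or shed chemokines passed 2-fold, with log2 ratios between -0.36 for Mmp9 and 0.63 for Mmp13. The sheddases of Cx3cl1 and Cxcl16, Adam10 and Adam17, had -0.05 and 0.18.

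Markers of other cells were read on the same 2 arrays. All 17 measured of 20 macrophage and monocyte markers had a higher signal at day 12, 15 of them by at least 2-fold, with log2 ratios from 0.23 for Aif1 to 2.13 for Tyrobp and a median of 1.39. Tyrobp and Fcer1g, adaptors of myeloid receptors, were 4.38-fold and 3.30-fold higher, the complement gene C1qb 3.06-fold and Cd68 2.99-fold. Their summed signal went from 6399 to 16268 (2.54-fold). None was listed at 0. Itgam, which encodes CD11b, lay below the floor at 14.6 and 35.4, as did Spi1 and Cd163. Of ligands that macrophages can express, Ccl8, Ccl12, Ccl9, Ccl4 and Cxcl16 were higher on the same array and Ccl2, Ccl7 and Ccl5 were lower, and the part of macrophages in these values was not tested. Cx3cr1, also a macrophage gene, was not higher by more than a log2 ratio of 0.08 under any setting that measured it. In bulk RNA, fewer cells of a type and less RNA per cell cannot be told apart. The markers of neutrophils (7 genes), of T, B and NK cells (9 genes) and of mast cells (6 genes) were all below the floor, with summed signals of at most 73.9 for any of these lists on either array, and 2 of 10 endothelial markers were measured, at signals under 75. Of 8 osteoclast markers 4 were measured; Atp6v0d2, a proton pump subunit, went from 15.7, below the floor, to 85.6 and was at least 1.84-fold higher, and the other 3 had log2 ratios between -0.36 and 0.36.

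Chondrocyte markers had a median log2 ratio of -1.53, with 8 of 12 at least 2-fold lower (at least 33.6-fold for Matn1, 11.5-fold for Snorc and 10.8-fold for Ucma, and 5.61-fold for Col9a2) and a summed signal of 38234 at day 5 and 16999 at day 12. Their part in the lower signals of Ccl2, Ccl7, Cxcl5, Csf1, Il34 and Cx3cl1 was not tested. Of 10 stromal and fibroblast markers, 8 had a lower signal at day 12, with a median log2 ratio of -0.26. Their sums of 21703 and 21687 are set largely by Lum, at 11761 and 12879. Lepr was 2.06-fold higher, Dpt 2.28-fold lower, and the other 8 were within 2-fold. All 8 markers of osteoblasts, the labelled cell type, that were analysed lay above the floor at day 12, and 6 were at least 2-fold higher there, among them, by the brightest probe set, Dmp1 (20.2-fold), Phex (at least 11.9-fold), Ibsp (9.41-fold, while its second probe set gave 5.24 on the log2 scale) and Alpl (4.90-fold). Both arrays had been scaled to the same trimmed mean, so the ratios are relative to each array's total.

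**Figure D4:**
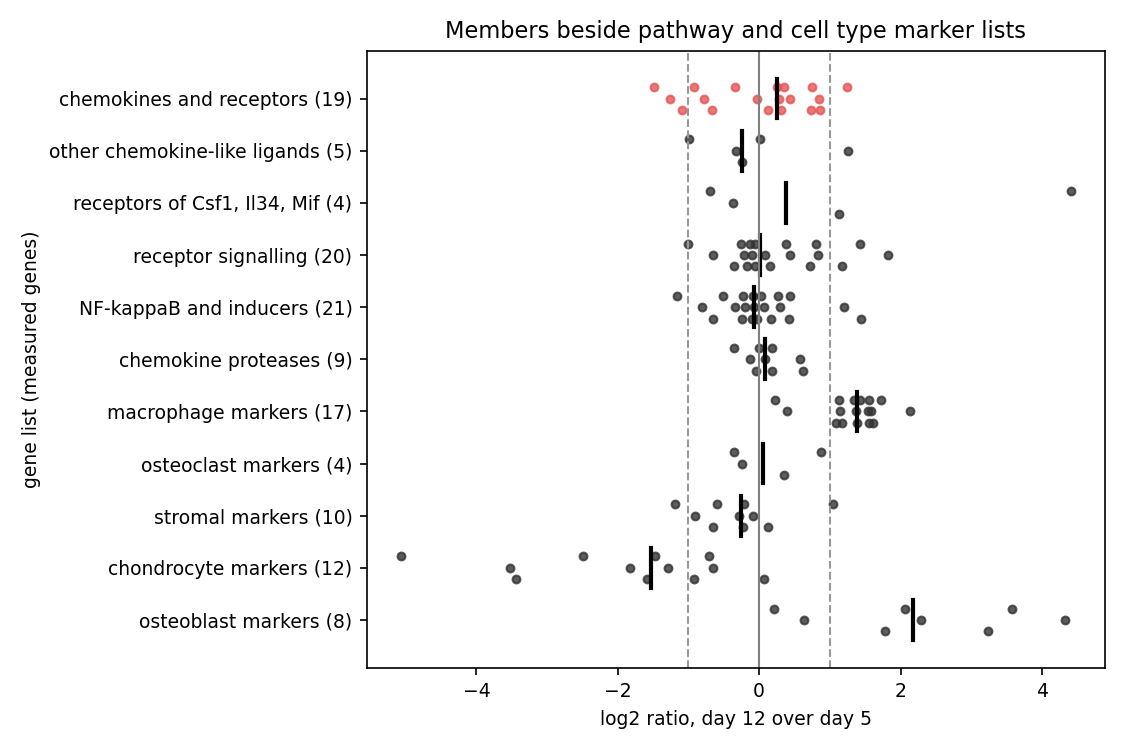
Log2 ratio of day 12 over day 5 of each measured gene (points) for the chemokine and receptor genes and for each list, with the number measured in parentheses, the median as a vertical bar and dashed lines at 2-fold. The 19 chemokine and receptor genes lie on both sides of 0, while all 17 macrophage markers lie to the right.

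The values of the 19 genes were recomputed under 9 alternative settings. Many of these cannot move a gene by construction, since a lower floor leaves genes above it on both arrays as they are and the probe set settings leave genes with a single probe set as they are. Cx3cr1, near 0, turned positive under median centring, quantile normalisation and loess. For Cxcl1 the setting that takes the median over probe sets averages readings of both signs, and its log2 ratio was then 0.26.

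**Figure D5:**
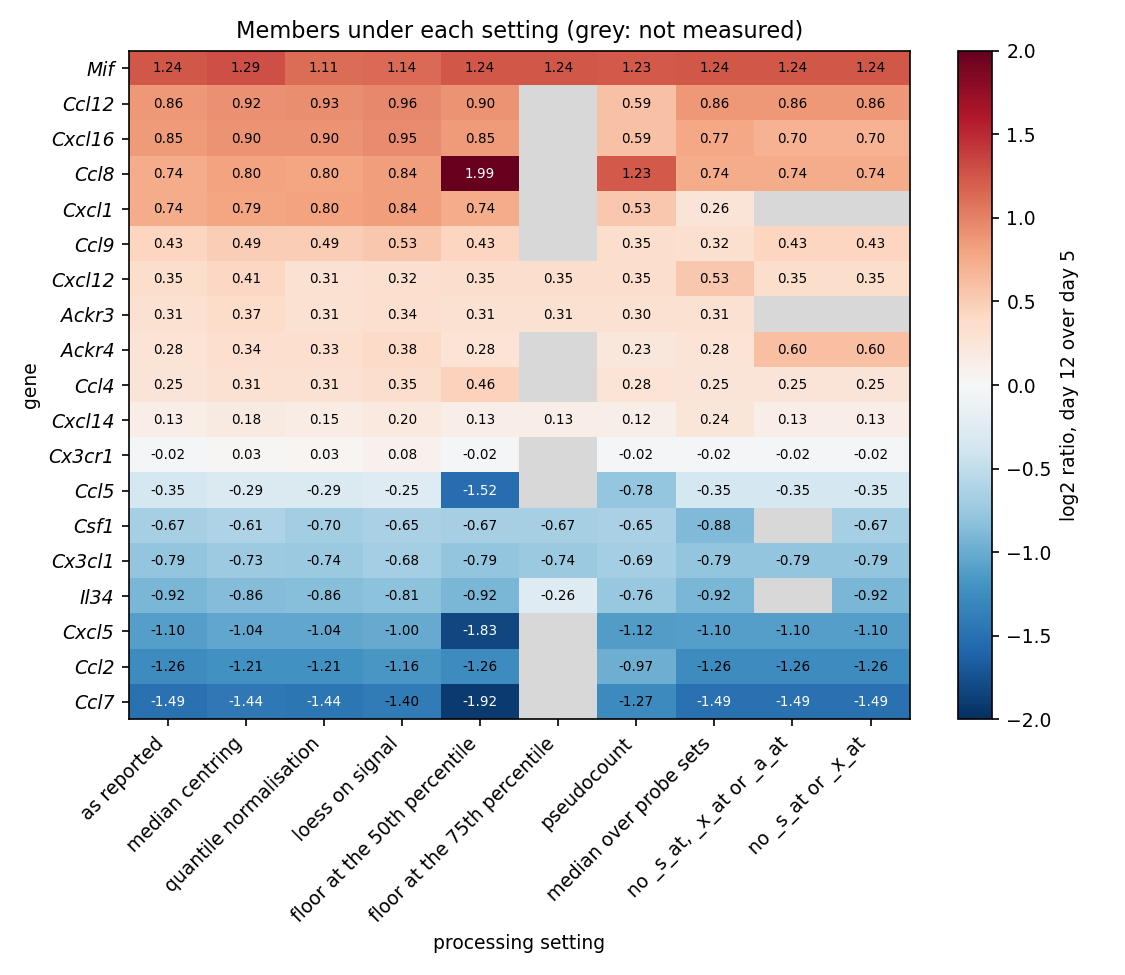
Log2 ratio of day 12 over day 5 for the 19 measured genes (rows) as reported and under 9 alternative settings (columns), in colour from -2 (blue) to 2 (red) and as numbers, grey where the gene was not measured. Mif stays near 1.2 throughout, Ccl8 and Ccl5 shift most with the lower floor, and 12 genes drop out with the floor at the 75th percentile.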

How the data were processed

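Total RNA of 2 samples, 1 for each day, was hybridised as biotin-labelled cRNA to Affymetrix mouse arrays, per the labels' protocols. The authors deposited linear signal intensities of 45101 probe sets; GCOS 1.4 and MAS5 appear in the submitters' processing notes, and other settings are not given in the sources used here. No detection calls were used, and a low MAS5 signal carries more error than a high one. The number of arrays limits the precision.

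Names came from the platform annotation, with symbols updated by Entrez number to GRCm38.p6 (all 94 of the members). Names with a paralogue letter (Ccl27a) were kept, Ccr1l1 was not, and 4 probe sets that carry a family name beside others were left out. The left-out set that names Ccl19 had signals of 51.9 at day 5 and 111 at day 12. Those that name Ccl27a had 101.8 and 120.4, and 66.0 and 46.2. The set that names Ccl21a had 0.649 and 2.44. The probe set brightest on average, on the log2 scale, stood for its gene. Deposited values were not normalised further. Each day had 1 array, so no test was run, and 2-fold was the threshold. The ratio code was tested on simulated data.

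The members and lists were chosen with earlier results of these data known. By rule, every measured member, the receptors Ccr1, Ccr2, Cxcr2 and Cxcr4, and members of each list past 2-fold (at most 4 in a direction) are named. Other list genes and the promoters of Ccl12, Ccl8 and Csf1 were chosen after their values were seen. Promoters are RefSeq's; both strands were searched. Some genes that the rule or the lists name, and protein sequences, are not reported here. The alternatives were 3 scalings (median centring, quantile, loess), the 50th or the 75th percentile as floor, a pseudocount of 32, a gene's median ratio across its measured probe sets, 2 ways of dropping those of shared sequence, thresholds of 1.5-fold and 3-fold, and leaving out Csf1, Il34 and Mif. Python 3.11.15, numpy 2.4.6, pandas 2.3.3, statsmodels 0.14.6 and matplotlib 3.10.9 were used.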

Additional observations from a re-analysis of the deposited data

How the results depend on the processing

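At the 50th percentile 30 members were measured in place of 19, with 2 at least 2-fold higher (Ccl8 and Mif) and 5 at least 2-fold lower (Ccl2, Ccl5, Ccl7, Cxcl5 and Cxcl10), where 4.19% and 2.44% of all measured genes were. At the 75th percentile 7 were measured and 0 were at least 2-fold lower, since Ccl2, Ccl7 and Cxcl5 fell below the floor (all measured genes: 3.03% higher and 1.005% lower). With a pseudocount of 32, 2 were at least 2-fold higher (Ccl8 and Mif) and 2 lower (Ccl7 and Cxcl5), where 3.30% and 1.24% of all measured genes were. At 1.5-fold 5 were higher and 6 lower, where 7.25% and 7.70% of all measured genes were. At 3-fold 0 were higher and 0 lower, and the share of all measured genes past 3-fold was not counted. Without Csf1, Il34 and Mif, 0 were at least 2-fold higher and 3 lower, where 3.56% and 1.73% of all measured genes were. Median centring, quantile normalisation and loess kept Mif as the gene past 2-fold on the higher side and Ccl2, Ccl7 and Cxcl5 on the lower. The median over probe sets and both ways of leaving out shared probe sets gave the same genes. These probe set settings could not move Mif, Ccl2, Ccl7 or Cxcl5, each with a single measured probe set that is not of a shared type. Leaving out _s_at and _x_at alone was chosen after seeing the data. The median of the members ranged from 0.13 to 0.32 over all settings. Leaving out _a_at as well removes Csf1 and Il34, although that mark stands for transcripts of a single gene. No replicate could be left out with 1 array per day. No paired analysis was possible because each day has 1 array and no test was made.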

Other observations

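Some members below the floor on both arrays were chosen here after their values were seen. Cxcl10, an interferon-induced attractant of T cells, had 44.4 at day 5, just under the floor of 46.6, and 12.6 at day 12, and with the floor at the 50th percentile it was counted as at least 2-fold lower. Ccrl2, a chemokine-like receptor that binds chemerin, had 9.16 and 33.1, and Xcl1, the ligand of Xcr1, had 1.35 and 22.8. Cxcr6, the receptor of Cxcl16, had 21.4 and 7.94 in the brighter of its probe sets. Below the floor the values of Ccrl2, Xcl1 and Cxcr6 have no order.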
